A study of Mus musculus with 16 samples.

Results

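Brains of newborn mice fathered by X-irradiated freeze-dried sperm were compared with brains of newborn mice fathered by freeze-dried sperm that had not been irradiated. The comparison rests on 8 of the 16 arrays of the series, chosen by their labels: 4 animals from freeze-dried spermatozoa exposed to 5 Gy of X-rays, called irradiated 1 to 4 here, and 4 animals from freeze-dried spermatozoa labelled as control, called freeze-dried 1 to 4. All 8 animals were C57BL/6 mice at P1, the first day after birth, and in both groups the sperm had been freeze-dried, so the groups differ by label only in the irradiation of the sperm. The labels give irradiation of the sperm only, not of the pups. The other 8 arrays, 4 from fresh sperm and 4 from freeze-dried sperm heated to 95 °C during 1 h, entered the fit as 2 more groups. Each array carried Cy3-labelled total RNA of 1 numbered neonate. The labels do not say which neonates shared a litter, a father or a sperm sample, so the p-values rest on the spread between these animals, pooled over the 4 groups. In the fresh and irradiated groups, which lay on 2 slides, that spread also holds any difference between the slides.

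A freeze-dried spermatozoon cannot swim and fertilises an egg only when injected into it, and the egg then repairs what it can of the sperm's DNA breaks before the paternal and maternal chromosomes join. Cells with unrepaired breaks usually stabilise the p53 protein, which switches on the cell cycle inhibitor Cdkn1a and its own regulator Mdm2, and DNA that leaks into the cytoplasm can switch on interferon-stimulated genes through the cGAS and STING sensors. A brain at birth is a long way in time from fertilisation, and its RNA shows what is expressed in the pup, not what happened in the zygote.

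Levels below are log2 signals from which the array's own 75th percentile was subtracted, so that 1 unit is a 2-fold difference, and a level compares animals for 1 probe and does not rank genes against each other. Differences are irradiated minus freeze-dried. After dim probes were left out, 26477 genes and unnamed features were tested, 15993 of them with a RefSeq symbol. In the 2 groups 62.7% to 66.1% of an array's spots stood well above background and a signal of 1152 to 1406 marked its 75th percentile, and repeated spots of a probe had a median coefficient of variation of 6.2% to 13.8%. The arrays lay on 2 slides. All 4 freeze-dried animals and irradiated 1 and 2 were on slide 1, and irradiated 3 and 4 were on slide 2, so values from slide 1 alone, where slide cannot separate the groups, stand beside the results that lead each account. The fresh animals were split over both slides, and all 4 heated animals were on slide 2. A heated mean set beside a freeze-dried mean therefore differs from it by slide as well as by treatment of the sperm.

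Neural markers were detected: 34 of 34 listed synaptic genes, 20 of 20 astrocyte genes, 17 of 21 oligodendrocyte genes and 22 of 25 progenitor genes were well above background in all 8 animals. So were 25342 of the 26477 genes and features that had passed the filter, so detection alone does not set these genes apart. Some animals carried signs of neighbouring tissue or differed in sex. The mean level of 10 skin genes, given here and below as a deviation from the 16-array mean, was 2.77 in freeze-dried 2 and -0.213 to -0.131 in the other 7 animals; its keratin Krt14 stood at 1.91 against -4.13 to -3.73. The pituitary list stood at 0.795 in freeze-dried 1 and at most -0.0552 in the others, with the pituitary hormone precursor Pomc at 2.28 against -1.66 to -1.2. The 12 Hox genes tested, which mark hindbrain and spinal cord, had a mean of -1.79 in freeze-dried 2 and -0.11 in irradiated 1, against 0.406 to 1.47 in the other 6. Y-linked genes were near background in irradiated 4 (Ddx3y at -8.22, Kdm5d at -8.32). In freeze-dried 2 Eif2s3y stood at -0.94, against 0.13 to 0.63 in the remaining 6 animals, and Uty at -4.45, against -3.49 to -2.95. Ddx3y and Kdm5d there were not below the range of those 6. These lists are therefore not read as differences between the groups: the Hox median difference of 0.677 was -0.00572 without freeze-dried 2, and the skin median of -0.566 was 0.0683 without that animal.

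No gene passed an adjusted p of 0.05 (limma, Benjamini-Hochberg adjustment over all 26477; 0% called), and 1917 (7.24%) had an unadjusted p under 0.05, where 1324 would be expected by chance. Of the 1917, 1075 were higher in the irradiated group (4.06% of all tested) and 842 lower (3.18%). The 4 irradiated values lay wholly above the 4 freeze-dried values for 742 genes and features (2.8%) and wholly below for 525 (1.98%), which makes 4.79% without overlap. These shares are the background for the counts of list members below. The median difference over all tested was 0.018 and the median size of a difference 0.0894, against a median standard error of 0.101. A difference of at least 1.5-fold was seen for 356 higher (1.34%) and 103 lower (0.389%). The split between higher and lower depends on the scaling: of those with an unadjusted p under 0.05, 56.1% were higher here, 47.5% after quantile normalization, 40.9% in the authors' deposited table and 34.6% when arrays were scaled to their median. Since no gene passed the test, genes are described below by their values and by whether the animals of the 2 groups overlap.

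Whole profiles of animals from different groups were about as far apart as those of animals from 1 group, as far as they shared a slide. The median absolute difference between 2 freeze-dried animals was 0.119 to 0.16 over their 6 pairs. Between a freeze-dried and an irradiated animal of the same slide it was 0.091 to 0.168 over 8 pairs, and freeze-dried 4 and irradiated 2 were the closest of all pairs. Between animals of different slides it was 0.118 to 0.188 over 8 pairs. The irradiated animals differed from each other by 0.102 to 0.116 within a slide and by 0.117 to 0.165 across slides.

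The gene nearest to the threshold was Mob3c, which encodes a member of the MOB family of kinase activators. Its level was -4.43, -4.31, -4.42 and -4.61 in freeze-dried 1 to 4 and -5.32, -5.04, -4.94 and -5.05 in irradiated 1 to 4. All irradiated animals were below all freeze-dried ones, by 0.64 on average (SE 0.09; adjusted p = 0.0747, limma), and the difference was -0.74 on slide 1 alone. Its mean was -4.49 ± 0.08 (SD, n = 4) in animals from fresh sperm and -4.41 ± 0.1 in those from heated freeze-dried sperm, both close to the freeze-dried mean of -4.44 ± 0.12. Without freeze-dried 4 its difference was -0.70 with an adjusted p of 0.0356 (limma).

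Htr1d, an inhibitory serotonin receptor, ran the other way. Freeze-dried animals stood at -5.64, -5.5, -5.25 and -5.39 and irradiated animals at -4.9, -4.97, -4.86 and -4.9, a difference of 0.54 (SE 0.09; adjusted p = 0.236, limma), or 0.51 on slide 1 alone. The 4 irradiated values lay within a narrow band, with an SD of 0.05 against 0.16 in the freeze-dried group. Htr1f, a related receptor, was also higher on average (0.54, SE 0.22), but its groups overlapped, and Htr3a, a serotonin-gated ion channel, was lower in all 4 irradiated animals (-0.23, SE 0.11). Of 11 genes tested from a list of serotonin receptors, the serotonin transporter and a synthesis enzyme, 8 were higher and 3 lower.

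Txnip encodes a protein that binds thioredoxin and limits glucose uptake, and its transcript follows glucose supply. It stood at 2.49, 2.23, 2.76 and 2.55 in the freeze-dried animals and at 3.04, 2.92, 3.09 and 3.12 in the irradiated animals. Every irradiated animal was above every freeze-dried one (0.53, SE 0.09; adjusted p = 0.236, limma), with 0.47 on slide 1 alone. The fresh and heated groups had means of 2.42 ± 0.03 and 2.57 ± 0.09. Its relative Arrdc3, another α-arrestin, showed the same separation, with 0.6, 0.48, 0.79 and 0.67 against 1.0, 0.91, 1.12 and 1.08 (0.39, SE 0.08). The list of arrestin and thioredoxin genes as a whole did not lean that way: 6 of 11 were higher, with a median of 0.00202, or -0.0769 under median scaling, and Arrdc2 was 0.12 lower on average.

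Clk1 encodes a kinase that phosphorylates SR splicing factors. It stood at 1.29, 1.46, 1.33 and 1.08 in the freeze-dried animals and at 0.93, 0.68, 0.7 and 0.54 in the irradiated animals, a difference of -0.58 (SE 0.11; adjusted p = 0.416, limma) and of -0.49 on slide 1 alone, and both of its probes gave the same sign. The spliceosome protein Cwc22 was lower in every irradiated animal too, at -0.86, -0.77, -0.81 and -0.84 against -0.51, -0.46, -0.44 and -0.61. The splicing factor Srsf2 also did not overlap between the groups (-0.17, SE 0.06). Among 29 splicing genes, 19 were lower and 10 higher with a median of -0.0526, which ranged from -0.132 to -0.0198 over the settings tried. At an unadjusted p under 0.05 there were 4 lower and 1 higher, beside 3.18% and 4.06% of all.

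Other genes among those with the smallest p had the same form, a shift of under 1 log2 unit with no overlap. C2cd4b was higher in the irradiated group (0.63, SE 0.12), as were Treml2, a receptor of the TREM family (0.69, SE 0.16), and Utp14b (0.66, SE 0.15). Bhlha15, a transcription factor of secretory cells, was lower by 0.97 (SE 0.2), but it was well above background in only 1 of the 4 irradiated animals, where dim spots carry more noise. Snai1, a transcriptional repressor known from epithelial to mesenchymal transition, was lower by 0.62 (SE 0.15), Ttf1, which ends ribosomal RNA transcription, by 0.39 (SE 0.09), and Mtf2, a partner of the Polycomb complex PRC2, by 0.29 (SE 0.07), with all 3 probes of Mtf2 of the same sign. The smallest adjusted p of these 7 genes was 0.416 (limma).

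**Figure D1:**
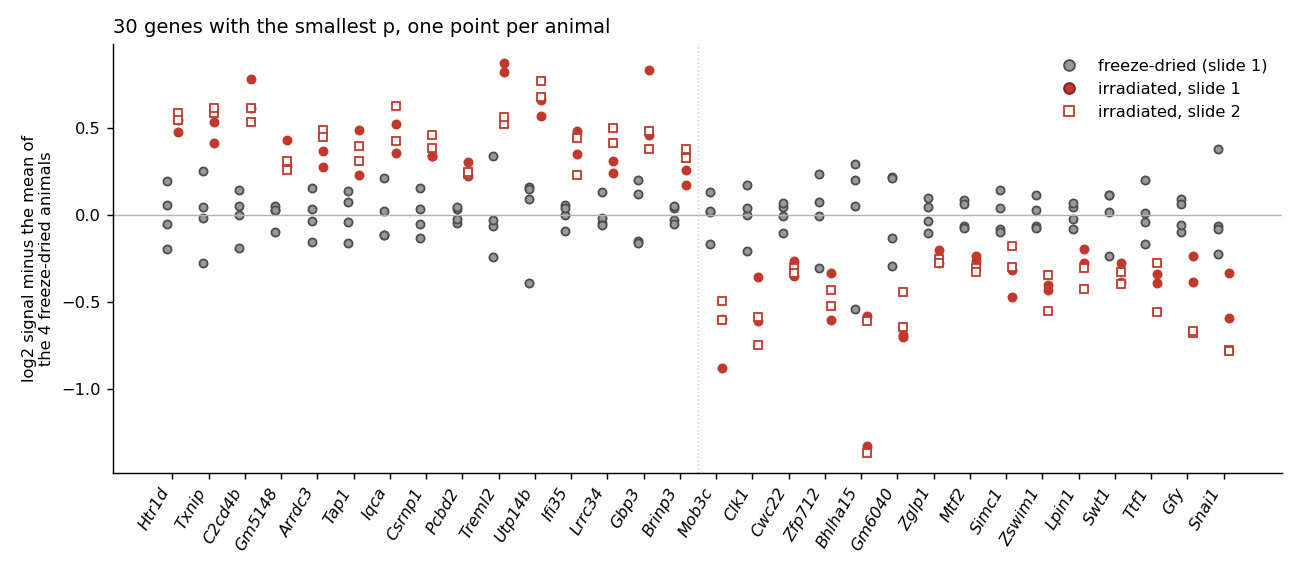
Log2 signal of each animal minus the mean of the 4 freeze-dried animals (vertical axis) for the 15 genes higher and the 15 lower in the irradiated group with the smallest p (horizontal axis), 1 point per animal; grey circles are freeze-dried, filled red circles irradiated on slide 1 and open squares irradiated on slide 2. In each gene the 4 irradiated points lie on 1 side of the 4 freeze-dried ones, with both slides on that side; the genes were chosen by this contrast, and none passed the adjusted threshold.

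The interferon-stimulated genes were the list with the largest median apart from the Hox, skin and Y-linked genes described above. These genes encode antiviral proteins, and type I interferon switches them on through a transcription factor complex that binds a DNA element called ISRE. The element was searched for as GAAA, 2 bases of any kind and GAAA again, on both strands in RefSeq promoter windows of GRCm38.p6, 250 bases before to 50 after the start of a gene. It was found in 14 of the 20 interferon genes that have such a window (70.0%), in 2 of 8 genes of antigen presentation (25.0%) and in 1079 of all 27025 genes (3.99%). A match is a run of letters and was not tested as a site. Windows of 60 bases around the element are shown for 5 genes whose values follow, read 5′ to 3′ on the gene's strand with 1 match in capitals and any further or overlapping match left in lower case, from chr4:156200850-156200909 (minus strand, Isg15), chr19:34640779-34640838 (plus, Ifit1), chr19:34583382-34583441 (plus, Ifit3), chr3:142620579-142620638 (plus, Gbp2) and chr3:142559980-142560039 (plus, Gbp3). All of them lie upstream of the start, the element 39 to 122 bases away from it.
Isg15: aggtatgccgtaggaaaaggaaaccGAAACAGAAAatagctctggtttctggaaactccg
Ifit1: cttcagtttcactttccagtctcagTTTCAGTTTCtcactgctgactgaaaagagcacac
Ifit3: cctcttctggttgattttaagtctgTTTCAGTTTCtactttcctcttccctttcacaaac
Gbp2: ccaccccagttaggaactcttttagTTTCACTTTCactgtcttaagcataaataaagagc
Gbp3: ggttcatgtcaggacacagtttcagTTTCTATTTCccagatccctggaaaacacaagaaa

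All 27 interferon genes tested were higher on average in the irradiated group, against 55.7% of all genes and features; 12 had an unadjusted p under 0.05 (4.06% of all were higher at that p) and none passed the adjusted threshold. The median difference was 0.426. The groups overlapped for most of them. In 3 of the 27 the irradiated values lay wholly above the freeze-dried ones, beside 2.8% of all: Gbp3, Gbp2 and Iigp1. All are GTPases that attack the membranes of intracellular pathogens. Gbp3 stood at -1.99, -1.64, -1.72 and -2.0 in the freeze-dried animals and at -1.38, -1.01, -1.36 and -1.46 in the irradiated animals (0.53, SE 0.13; adjusted p = 0.531, limma). Iigp1 stood at -3.79, -3.94, -3.39 and -4.16 against -3.04, -2.48, -3.31 and -3.31 (0.79, SE 0.24).

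The animals differed in degree. Isg15, a ubiquitin-like protein attached to other proteins, stood at -0.48, 0.33, 0.39 and 0.12 in freeze-dried 1 to 4 and at 0.88, 1.59, 0.63 and 0.27 in irradiated 1 to 4. Irradiated 2 was the highest and irradiated 4 lay among the freeze-dried animals. Ifit1, which blocks translation of viral RNA, had the same order among the irradiated animals, with -3.84, -3.52, -4.38 and -5.0 against -5.43, -4.73, -4.7 and -5.64. The chemokine Cxcl10, not in the list, was highest in irradiated 2 as well, at -3.19, and irradiated 3 at -5.02 stood next to the freeze-dried values of -5.56 to -5.06 (1.02, SE 0.42; adjusted p = 0.679, limma). Irf7, the transcription factor that amplifies the response, was higher by 0.51 (SE 0.22) with overlap. Set against the freeze-dried mean, 27 of the 27 genes were higher in irradiated 1, 26 in irradiated 2, 25 in irradiated 3 and 15 in irradiated 4. Within the freeze-dried group the list mean also varied, from -0.423 in freeze-dried 1 to 0.0736 in freeze-dried 3; the irradiated animals stood at 0.332, 0.693, 0.109 and -0.176.

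On slide 1 alone, where irradiated 1 and 2 face all 4 freeze-dried animals, the list's median difference was 0.653 with 26 of 27 genes higher; for irradiated 3 and 4 against the same animals it was 0.159 with 22 of 27 higher. Without irradiated 2 the median was 0.249 and without freeze-dried 1 it was 0.27. In the groups that share no animal with these, Isg15 had a mean of -0.09 ± 0.37 (SD, n = 4) after fresh sperm and 0.85 ± 0.17 after heated freeze-dried sperm, beside 0.09 ± 0.39 and 0.84 ± 0.56 in the freeze-dried and irradiated groups. Genes with near-identical relatives in this list, such as the Gbp and Ifit genes, can cross-hybridise on an array and are not independent of each other.

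**Figure D2:**
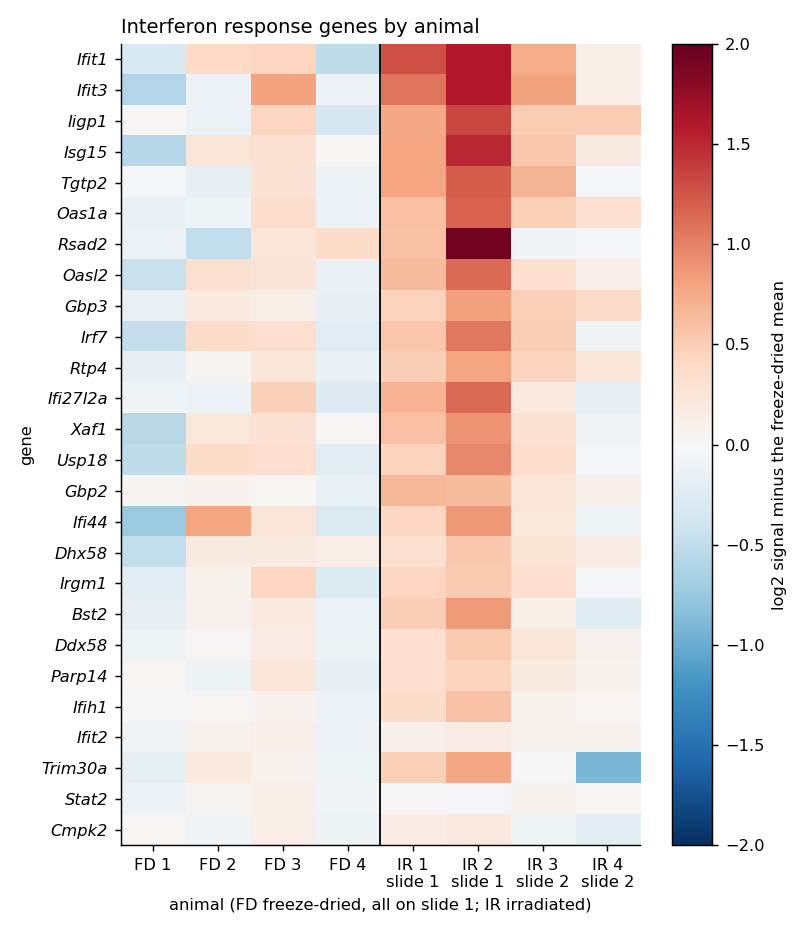
Log2 signal of 26 interferon response genes of the 27 tested (rows, ordered by difference) in the 8 animals (columns: FD freeze-dried, IR irradiated with the slide), as the difference from the mean of the 4 freeze-dried animals; the colour scale runs from -2 (blue) to 2 (red). Irradiated 1 and 2 are red in nearly every row, and irradiated 3 is paler; on this scale the means of the whole list are 0.52, 0.89 and 0.30 in these animals and 0.02 in irradiated 4, which looks like the freeze-dried animals (-0.23 to 0.27).

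Genes of MHC class I antigen presentation, which interferon also induces, were higher in the irradiated group for 10 of 10 tested, against 55.7% of all genes and features, with a median of 0.227. At an unadjusted p under 0.05 there were 6, and 3 did not overlap, beside 4.06% and 2.8% of all. The median was 0.27 on slide 1 alone, 0.148 under median scaling and 0.11 in the authors' deposited table. Tap1, a subunit of the transporter that carries peptides to class I molecules, stood at -2.49, -2.37, -2.31 and -2.61 against -2.22, -1.96, -2.05 and -2.14 (0.35, SE 0.07; adjusted p = 0.484, limma), and the difference was 0.35 with either pair of irradiated animals. The class I heavy chain H2-K1 stood at 0.65, 0.61, 0.58 and 0.55 against 0.95, 1.08, 0.8 and 0.66, and H2-D1 differed by 0.12 (SE 0.04); both separated the groups. The immunoproteasome subunits Psmb8 (0.44, SE 0.19) and Psmb9 (0.31, SE 0.1) were higher with overlap. Probes of H2 genes can pick up other class I genes.

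The genes that sense nucleic acid and signal towards interferon were split. Of 13 tested, 6 were higher and 7 lower, with a median of -0.0341, whose sign turned on slide 1 alone (0.0367), with slide as a term in the fit (0.0237) and without irradiated 4 (0.0432). The kinase Tbk1 was lower by 0.22 (SE 0.08) and the transcription factor Irf3 by 0.17 (SE 0.07), both with overlap, while Ifnar2, a chain of the interferon receptor, was higher by 0.12 (SE 0.05) in all 4 irradiated animals. The sign for Ifnar2 turned when all of its probes were averaged (-0.06), and only 1 of the 2 probes of Irf3 was lower.

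Immune cells that could carry interferon genes were measured beside them, and their part in the interferon values was not tested. Of 20 microglia and macrophage genes, 15 were higher with a median of 0.0523, which became -0.0266 under median scaling. On slide 1 alone the median was 0.158 with 18 of 20 higher, and it was 0.109 without irradiated 4 and 0.0299 without irradiated 2. Trem2, a lipid receptor of microglia, separated the groups (-0.33, -0.47, -0.35 and -0.36 against -0.09, -0.16, -0.28 and -0.27), and so did Cx3cr1, the fractalkine receptor (0.22, SE 0.1). The list mean was -0.0595 to 0.0243 in the freeze-dried animals and 0.103, 0.101, 0.002 and -0.0931 in irradiated 1 to 4, so it was highest in irradiated 1 and 2. Of 11 granulocyte and lymphocyte genes tested, 9 were lower, with list means of -0.0846 to 0.597 in the freeze-dried and -0.132 to 0.135 in the irradiated animals and a median difference of -0.185, which was -0.0844 without freeze-dried 4 and -0.286 without freeze-dried 3. In RNA from whole tissue, fewer cells of a type and less RNA per cell cannot be told apart.

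Genes of the p53 response leaned neither way as a list. Cdkn1a, which halts the cell cycle, stood at 0.64, 0.9, 0.87 and 0.69 in the freeze-dried animals and at 0.81, 0.89, 0.67 and 0.73 in the irradiated animals. The ranges overlapped throughout and the difference was 0.00 (SE 0.07; adjusted p = 0.996, limma). Mdm2, which targets p53 for destruction, differed by -0.08 (SE 0.08), and its 2 probes had opposite signs. Of 28 p53 targets tested, 12 were higher and 16 lower with a median of -0.0149, which ranged from -0.0938 to 0.0133 over the settings tried. At an unadjusted p under 0.05 there were 3, all lower, beside 3.18% of all that were lower at that p. These were Gadd45a, a growth arrest gene (-0.26, SE 0.11), Xpc, which finds damaged bases (-0.15, SE 0.06), and Zmat3 (-0.17, SE 0.07).

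DNA repair and apoptosis genes differed by small amounts. Of 38 damage signalling and repair genes, 26 were lower and 12 higher with a median of -0.0494, which was 0.000196 in the authors' deposited table and -0.128 under median scaling. Lig4, the ligase that joins broken ends, was the member with the smallest p: 0.78, 0.71, 0.64 and 0.58 against 0.48, 0.44, 0.47 and 0.47 (-0.21, SE 0.06; adjusted p = 0.622, limma), with no overlap. Chek1, a checkpoint kinase, was lower by 0.26 (SE 0.13) and Parp1, which marks strand breaks, by 0.18 (SE 0.08), whereas the helicase Wrn was higher by 0.35 (SE 0.12) with overlap, and lower by 0.02 when its probes were averaged. Among 18 apoptosis genes 7 were higher and 11 lower, with a median of -0.0128, or 0.00367 after normexp and quantile normalization. The cell death activator Bcl2l11 was lower by 0.18 (SE 0.07), with 2 of its 3 probes of that sign.

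Genes of mitosis were slightly lower in the irradiated group. Of 30 tested, 28 were lower on average, against 44.3% of all genes and features, with a median of -0.140; 7 had an unadjusted p under 0.05 and 3 did not overlap, beside 3.18% and 1.98% of all. Kif2c, a kinesin that takes apart spindle microtubules, stood at -3.31, -3.26, -3.41 and -3.42 against -3.47, -3.52, -3.6 and -3.54. Mki67, a marker of dividing cells, stood at 1.98, 1.95, 2.03 and 1.95 against 1.84, 1.93, 1.76 and 1.81 (-0.15, SE 0.07; adjusted p = 0.69, limma). Both separated the groups by small margins. Bub1b of the spindle checkpoint (-0.28, SE 0.12), the spindle kinase Aurka (-0.20, SE 0.09) and its activator Tpx2 (-0.25, SE 0.11) were lower with overlap.

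The size of the mitotic difference varied with the slide and the scaling. It was -0.0757 on slide 1 alone with 26 of 30 genes lower and -0.194 for irradiated 3 and 4. It was -0.0835 without irradiated 3, -0.219 under median scaling and -0.0324 in the authors' deposited table. Genes of DNA replication had a median of -0.0398, with 15 of 25 lower and none at an unadjusted p under 0.05, and this median was -0.000399 without freeze-dried 2 and 0.00138 without irradiated 2; the cytosolic thymidine kinase Tk1 was lower by 0.19 (SE 0.1).

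Promoters of many mitotic genes hold the cell cycle homology region, TTTGAA, which the DREAM complex uses to keep them silent outside division. It was found on either strand in 19 of 26 mitotic genes with a window (73.1%) and in 5466 of all 27025 genes (20.2%). The windows of the 2 genes given in full above show 1 match in capitals, at chr7:135716445-135716504 (minus strand, Mki67) and chr4:117178843-117178902 (minus strand, Kif2c) of GRCm38.p6.
Mki67: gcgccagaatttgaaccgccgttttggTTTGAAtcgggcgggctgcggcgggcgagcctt
Kif2c: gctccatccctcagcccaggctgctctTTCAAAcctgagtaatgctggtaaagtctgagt

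Neurog2, the factor that turns cortical progenitors into neurons, was the progenitor gene that differed most. It stood at -1.05, -0.97, -1.52 and -1.74 in the freeze-dried animals and at -1.97, -2.11, -2.2 and -1.86 in the irradiated animals (-0.71, SE 0.2; adjusted p = 0.628, limma), with no overlap. Against the same freeze-dried animals of slide 1, the difference was -0.72 for irradiated 1 and 2 and -0.71 for irradiated 3 and 4 of slide 2. The fresh group differed by -0.71 between slide 2 and slide 1. With slide as a term in the fit the difference between the groups was -0.54. The Neurog2 mean was -1.07 ± 0.46 after fresh sperm and -1.99 ± 0.08 after heated freeze-dried sperm. The heated animals were all on slide 2, so slide and heating cannot be told apart in that mean. Hes1 was lower by 0.68 (SE 0.26) with overlap, and was not well above background in 1 irradiated animal, and Gadd45g was higher by 0.25 (SE 0.11). The 23 progenitor genes had a median of -0.0465, with 16 lower and 7 higher; it was -0.0152 without freeze-dried 2, -0.00425 in the authors' deposited table and -0.125 under median scaling.

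**Figure D3:**
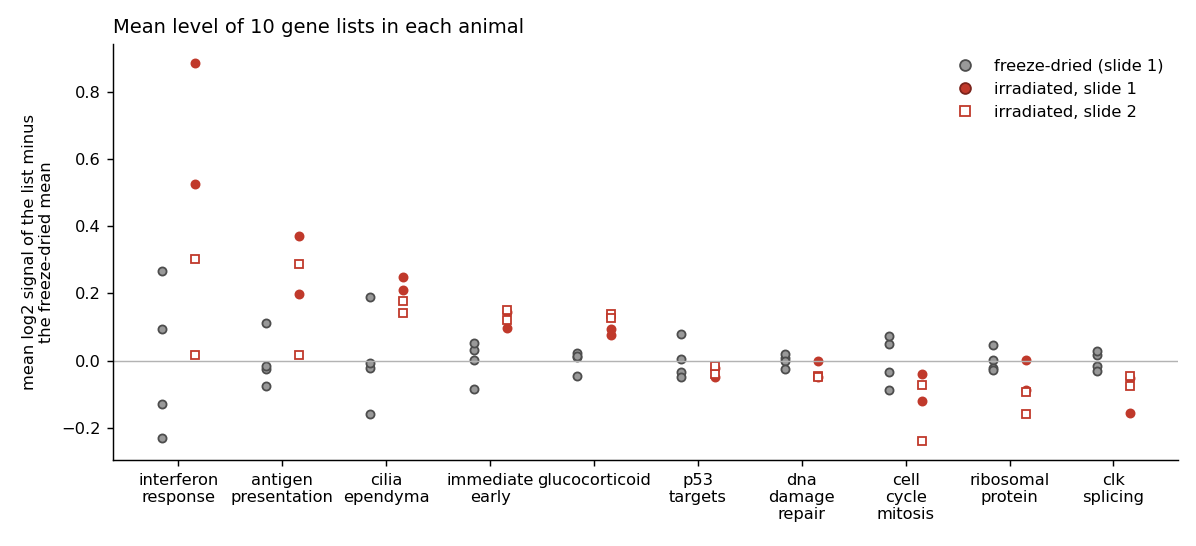
Mean log2 signal of 10 gene lists (horizontal axis) in each animal, as the difference from the mean of the 4 freeze-dried animals (vertical axis); grey circles are freeze-dried, filled red circles irradiated on slide 1 and open squares irradiated on slide 2. The interferon list spreads most, from irradiated 2 at the top to irradiated 4 near the freeze-dried animals, while p53 targets and repair genes of both groups lie together near 0.

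Genes of motile cilia, which line the ventricles on ependymal cells, were higher for 21 of 24 tested, against 55.7% of all genes and features, with a median of 0.173; 9 had an unadjusted p under 0.05 and 3 did not overlap, beside 4.06% and 2.8% of all. The ciliary gene Iqca stood at -3.62, -3.62, -3.48 and -3.29 against -3.15, -2.98, -3.08 and -2.88 (0.48, SE 0.1; adjusted p = 0.484, limma). Dynlrb2, a dynein light chain, and Meig1 also separated the groups (0.25, SE 0.09; 0.23, SE 0.09), and the axonemal dyneins Dnah10 (0.44, SE 0.2) and Dnah9 (0.18, SE 0.08) were higher with overlap. The median was 0.199 on slide 1 alone, 0.115 without freeze-dried 2, the animal with the lowest list mean (-0.32), 0.0946 under median scaling and 0.0646 in the authors' deposited table. Choroid plexus genes, from the neighbouring ventricular tissue, had a median of 0.0744 with 13 of 19 higher, which was -0.0424 on slide 1 alone and -0.00451 under median scaling, and none had an unadjusted p under 0.05.

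Glial genes leaned higher by small amounts. Of 20 astrocyte genes 18 were higher with a median of 0.105; Mlc1, an astrocyte membrane protein, stood at 3.3, 3.22, 3.42 and 3.47 against 3.7, 3.53, 3.67 and 3.64 (0.28, SE 0.1), whereas Hes5, shared with progenitors, was lower by 0.14 (SE 0.06). Gpr37l1, an astrocyte receptor outside that list, was higher by 0.70 (SE 0.22) with no overlap. Of 17 oligodendrocyte genes 12 were higher with a median of 0.128; Sox10, the lineage's transcription factor, stood at -0.12, -0.23, -0.04 and -0.04 against 0.06, 0.17, 0.26 and 0.23 (0.29, SE 0.09; adjusted p = 0.679, limma), and the myelin enzyme Cnp was higher by 0.20 (SE 0.09) with overlap. Without freeze-dried 2 the medians were 0.0629 for astrocyte and 0.0486 for oligodendrocyte genes, on slide 1 alone 0.118 and 0.0776, and under median scaling 0.0258 and 0.0493.

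Neuronal genes differed little. Of 34 synaptic genes 23 were higher with a median of 0.064, or -0.0149 under median scaling and 0.0199 without freeze-dried 1. At an unadjusted p under 0.05 there were 3, a share near the 7.24% of all: Camk2b, a kinase subunit of synapses (0.18, SE 0.07), Syn2, a synaptic vesicle protein (0.13, SE 0.05), and the NMDA receptor subunit Grin1 (0.15, SE 0.07). Only 1 of the 2 probes of Grin1 had that sign. Of 20 hypothalamic peptide genes 15 were higher with a median of 0.0784, or -0.000558 under median scaling, and Trh, which encodes thyrotropin-releasing hormone, did not overlap (0.22, SE 0.12). Monoamine and cholinergic genes had a median of 0.101 with 14 of 19 higher, which was 0.00129 with slide as a term in the fit, 0.0224 under median scaling and 0.0591 without irradiated 3.

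Genes that respond within minutes to handling or neuronal activity were mostly higher. Of 27 immediate early genes 23 were higher against 55.7% of all, with a median of 0.0817; 4 had an unadjusted p under 0.05 and 5 did not overlap, beside 4.06% and 2.8% of all. Csrnp1 stood at -1.7, -1.62, -1.53 and -1.41 against -1.23, -1.23, -1.11 and -1.18 (0.38, SE 0.08; adjusted p = 0.484, limma). Egr1, a transcription factor used as a marker of active neurons, stood at -0.15, 0.36, 0.63 and 0.61 against 0.9, 0.85, 1.0 and 0.98, and Egr4 was higher by 0.42 (SE 0.18) in every irradiated animal. The list's median was 0.0798 on slide 1 alone, 0.00601 with slide as a term in the fit and 0.00283 under median scaling; it was 0.0477 without freeze-dried 1, whose Egr1 was lowest, and 0.125 without freeze-dried 2.

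Glucocorticoid-responsive genes leaned the same way, with 16 of 19 higher against 55.7% of all, and a median of 0.0888. In 4 of them the irradiated values lay wholly above the freeze-dried ones, beside 2.8% of all. The median was 0.0839 on slide 1 alone, 0.0283 with slide as a term, 0.00986 under median scaling and 0.0572 without irradiated 3. Klf9, a transcription factor induced by the hormone, stood at -1.01, -1.2, -0.86 and -0.92 against -0.56, -0.64, -0.45 and -0.72 (0.41, SE 0.11; adjusted p = 0.582, limma). The kinase Sgk1 (0.28, SE 0.09) and the metallothioneins Mt1 (0.35, SE 0.16) and Mt2 (0.29, SE 0.11), which bind metal ions, were also higher in every irradiated animal. The labels used here give no time of collection or order of dissection, and the part of these in the values was not tested.

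Clock genes included members that separated the groups in both directions. Nr1d1, which encodes the repressor REV-ERBα, stood at -3.97, -3.65, -3.44 and -3.28 against -3.15, -3.17, -3.04 and -3.1 (0.47, SE 0.12; adjusted p = 0.56, limma), and Ciart, another repressor of the clock, was higher by 0.43 (SE 0.11). Per2 was lower by 0.20 (SE 0.08) in every irradiated animal. Of 18 clock genes tested 12 were higher, with a median of 0.0845, which was 0.0296 without freeze-dried 1 and 0.054 without irradiated 3. On slide 1 alone it was 0.051, and with slide as a term in the fit 0.0196. It was 0.00553 under median scaling and 0.0173 in the authors' deposited table.

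Stress lists other than these were split. Hspa1a, the inducible HSP70 chaperone, stood at 0.38, 0.73, 0.54 and 0.59 against 0.86, 0.81, 0.88 and 1.05 (0.34, SE 0.09), while its activator Hsf1 was lower by 0.15 (SE 0.06), and 11 of 18 heat shock genes were higher. Ppp1r15a, which ends the integrated stress response by restoring translation, was higher by 0.30 (SE 0.09) with no overlap, within a list of 12 of 18 higher. Hypoxia genes were higher for 9 of 18 (Ndrg1 by 0.18, SE 0.08, and Adm lower by 0.36, SE 0.16), and antioxidant genes also for 9 of 18 (Gstm1 higher by 0.23, SE 0.1, with 1 of its 2 probes of that sign, and Osgin1 lower by 0.70, SE 0.28, near background in 1 irradiated animal). The medians of these lists were 0.0436, 0.0736, 0.00147 and 0.00382, and under median scaling each was below 0 (-0.0353, -0.00528, -0.0774 and -0.0751).

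Housekeeping lists were shifted little. Cytosolic ribosomal protein genes were lower for 42 of 47, against 44.3% of all genes and features, with a median of -0.0862. At an unadjusted p under 0.05 there were 5, all lower, and 2 did not overlap, beside 3.18% and 1.98% of all. The median was -0.0582 on slide 1 alone, -0.165 under median scaling and -0.0224 in the authors' deposited table. Rps24 stood at 6.58, 6.57, 6.51 and 6.63 against 6.51, 6.44, 6.33 and 6.46 (-0.14, SE 0.05). Genes of oxidative phosphorylation had a median of 0.0115, or -0.0674 under median scaling, with 16 of 29 higher, and genes of cholesterol synthesis -0.0253 with 12 of 21 lower, or 0.00316 on slide 1 alone.

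Genes bearing on inheritance through the father's chromosomes differed little between the groups. Of 45 imprinted genes 30 were lower and 15 higher with a median of -0.0406, which was -0.0209 without freeze-dried 3, -0.0198 without irradiated 4 and -0.00505 in the authors' deposited table. The paternally expressed growth factor Igf2 stood at 2.25, 2.08, 1.99 and 2.12 against 2.1, 2.01, 2.03 and 1.99 (-0.08, SE 0.07), and the maternally expressed H19 of the same locus differed by -0.15 (SE 0.08); both overlapped. Gatm, an enzyme of creatine synthesis that is imprinted in placenta, was higher by 0.20 (SE 0.07) with no overlap, but only 1 of its 2 probes had that sign. DNA methylation and chromatin silencing genes were lower for 21 of 28 with a median of -0.0413, and the remodelling ATPase Smarca4 separated the groups (5.48, 5.43, 5.48 and 5.48 against 5.34, 5.39, 5.34 and 5.32). Of 19 germline genes, which methylation keeps silent in body tissues, 5 were bright enough to test, with a median of 0.12 that was 0.0211 without irradiated 2, 0.0726 without irradiated 3 and 0.0408 under median scaling; the meiotic gene Sycp3 differed by 0.41 (SE 0.21) with overlap.

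**Figure D4:**
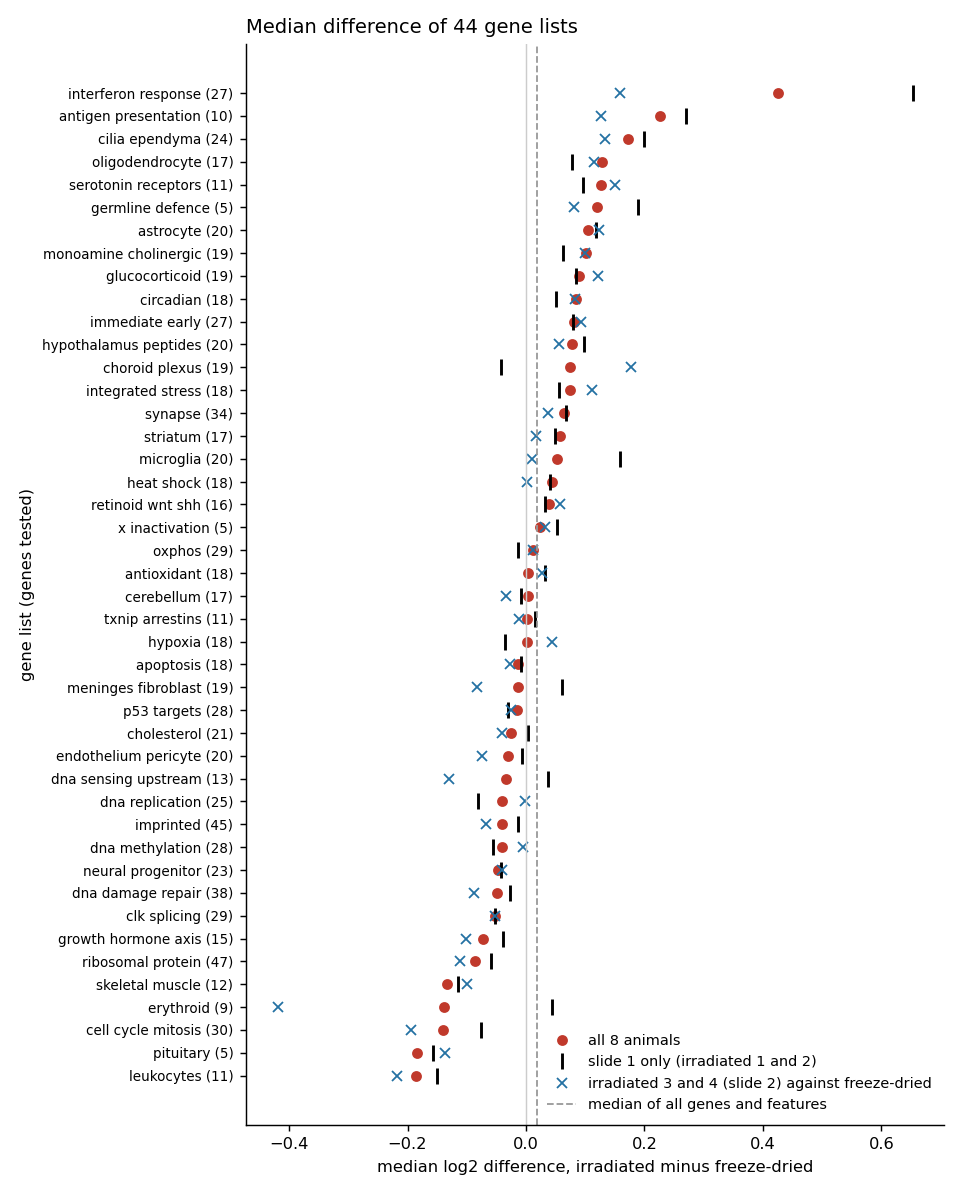
Median log2 difference, irradiated minus freeze-dried (horizontal axis), of 44 gene lists (vertical axis, with the number of genes tested), for all 8 animals (red circles), for irradiated 1 and 2 against the freeze-dried animals on slide 1 (black bars) and for irradiated 3 and 4 (crosses); the dashed line is the median of all genes and features, 0.018. The interferon list lies farthest right at 0.426, and its slide 1 value of 0.653 lies farther from the line than the 0.159 of irradiated 3 and 4; the Hox, skin and Y-linked lists, set by single animals, are not drawn.

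The irradiated animals themselves were split over the slides. Between irradiated 3 and 4 on slide 2 and irradiated 1 and 2 on slide 1, 2 genes and features passed an adjusted p of 0.05 (limma; 0.00755% of those tested), 2765 (10.4%) had an unadjusted p under 0.05 and 54.4% were higher on slide 2. The animals from fresh sperm were split over the same slides, and 668 (2.52%) passed the adjusted threshold there, 5512 (20.8%) the unadjusted one. The named gene was Raly, an RNA-binding protein, at 3.23 and 3.29 on slide 1 and 2.6 and 2.65 on slide 2 (-0.64, SE 0.07; adjusted p = 0.0202, limma). The animals from fresh sperm had the same step, with 3.08 and 3.25 on slide 1 and 2.73 and 2.77 on slide 2, and the freeze-dried animals, all on slide 1, stood at 3.2 to 3.35. The axonemal dynein light chain Dnal1 (0.72, SE 0.11) and the metallothionein Mt3 (-0.37, SE 0.07) also differed in the same direction in the fresh group, by 0.51 and -0.36. Cyfip2, which regulates actin at synapses, did not: irradiated 3 and 4 stood at 2.88 and 2.89, against 3.19 and 3.28 in irradiated 1 and 2 and 3.15 to 3.25 in the fresh group. Slide and animal cannot be told apart within the irradiated group, which has 2 animals on each.

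The comparison was repeated on slide 1 alone. All 1917 genes and features with an unadjusted p under 0.05 had the same sign there, where irradiated 1 and 2 also took part in choosing them, and 456 of the 1917 also had an unadjusted p under 0.05 there. With slide as a term in the fit, no gene passed the adjusted threshold, 1022 in all had an unadjusted p under 0.05, and 659 of the 1917 were among them.

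X-rays break DNA, so the pups' levels were also set out by chromosome. For each animal and each of 14377 genes, the deviation from the median of the other 15 animals was taken. The median of these deviations was computed per chromosome and in 266 autosomal runs of 50 neighbouring genes. Autosome medians were -0.032 to 0.039 in the irradiated animals and -0.045 to 0.024 in the freeze-dried animals, and the X chromosome gave -0.035 to 0.029 and -0.056 to -0.002. The lowest and highest runs of the irradiated animals were -0.099 and 0.089. An autosome present in 1 copy in place of 2 would give -1 at full dosage and 3 copies 0.585. No autosome or run of any of the 8 animals came near either. The X is not set against these values, and the Y was not included. The X median was 0.029 in irradiated 4, whose Y-linked genes were near background. Smaller losses, balanced rearrangements and changes in a minority of cells are not visible in such medians.

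**Figure D5:**
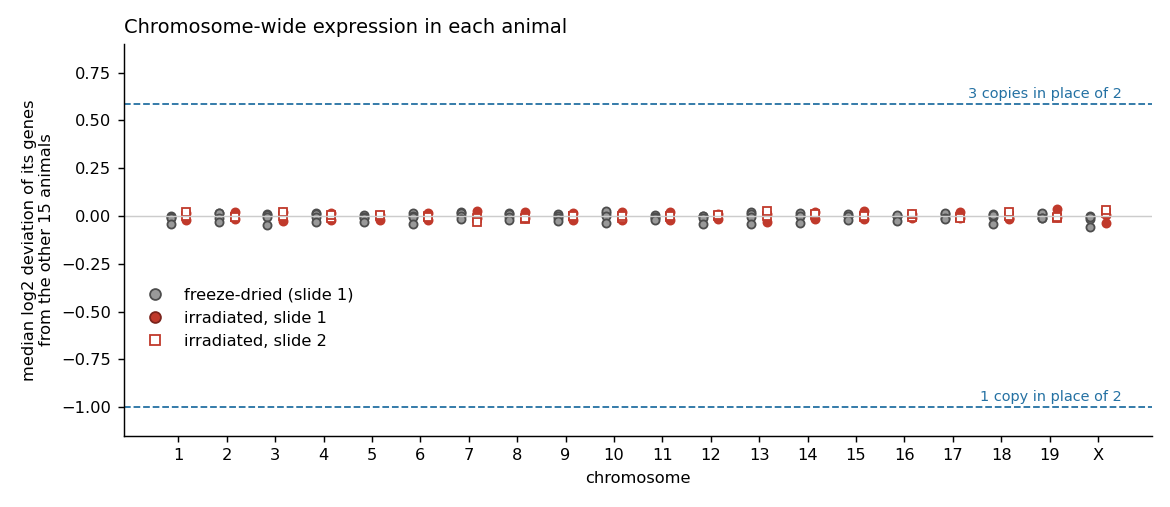
Median log2 deviation of the genes of each chromosome from the median of the other 15 animals (vertical axis) by chromosome (horizontal axis), 1 point per animal. Grey circles are freeze-dried, filled red circles irradiated on slide 1 and open squares irradiated on slide 2. Dashed lines mark 1 copy (-1) and 3 copies (0.585) in place of 2 for an autosome. Irradiated and freeze-dried animals lie together between -0.056 and 0.039.

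Genes that stood apart in a single animal were counted next. Genes at least 2-fold above all 15 other animals numbered 1, 1, 13 and 1 in irradiated 1 to 4, and genes at least 2-fold below all others 0, 5, 1 and 1. In the freeze-dried group they numbered 0, 58, 3 and 2 above and 2, 30, 0 and 0 below, with most in freeze-dried 2, the animal with the skin genes.

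Presence and absence gave few differences. Of the genes and features tested, 25342 were well above background in all 8 animals. Gpr39, a zinc-sensing receptor named after its values were seen, was well above background in all 4 irradiated and in none of the freeze-dried animals (at least 1.2-fold higher; adjusted p = 0.679, limma), as was 1 feature without a symbol. The predicted gene Gm33560, also named after its values were seen, was well above background in all 4 freeze-dried and none of the irradiated animals (at least 1.43-fold lower), as were 2 features without a symbol.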

How the data were processed

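Total RNA of 1 neonatal brain per array was labelled with Cy3, hybridised to a 1-colour Agilent array and scanned; the submitters' processing notes name Agilent Feature Extraction, version 11.0.1.1. The deposited intensity is gProcessedSignal, background-subtracted by the scanner software per the file headers; the deposited spot flags give other values (well above background, saturated, outlier). The authors' deposited log2 value table, whose making is not given in the sources used here, served as an alternative; it was matched by probe. Of 62976 spots, 3671 were controls and 56605 probes remained; 2043 outlier values were left out and no spot was saturated. Here log2(intensity) minus each array's 75th percentile was averaged over spots of a probe, 34261 probes were kept because some group had them well above background on each of its 4 arrays, and a gene was represented by its brightest probe. Symbols come from RefSeq (GRCm38.p6) by accession; promoter windows are RefSeq's.

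All 16 arrays were fitted with 4 group means in limma 3.58.1 (R 4.3.3; lmFit and eBayes, two-sided), and a second fit took a mean for each group on each slide; the scripts were tested on simulated data. A bound ("at least") sets the brighter group's mean against a mean over the dimmer group's arrays. For that mean each array gave the gene's own value or the array's lowest signal well above background, whichever was larger. Genes were named by rule: the 15 higher and 15 lower with the smallest p, up to 10 each way with the largest non-overlapping difference of at least 1.5-fold, up to 4 members of each of 47 lists by p, a fixed set, and up to 6 each way for the slides. The comparison, the lists and the rule were chosen with earlier results of these data known. The number of arrays limits the precision. Some genes are counted in their lists but not reported here by name.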

Additional observations from a re-analysis of the deposited data

Results flagged for a closer look

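Within each group of 4, an animal was picked out when its gap to the nearest other animal took up most of the group's range (Dixon's criterion). Of 190 groups of gene values and 94 groups of list means, 12 and 9 met it, where chance gives about 1 in 20. Genes of 1 animal or list share that animal's tissue and are not independent.

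Freeze-dried 2 was apart for the skin list (mean 2.77, others -0.213 to -0.183), for the keratin Krt14 (1.91 against -4.03 to -3.93), for the Y-linked list (1.75 against 2.25 to 2.34), for Eif2s3y (-0.94 against 0.25 to 0.3), for the cholesterol list (-0.0785 against -0.0167 to -0.00918) and for Smarca4 (5.43 against 5.48). Irradiated 4 was apart for the Y-linked list (-4.13 against 2.23 to 2.32) and its members Ddx3y (-8.22), Eif2s3y (-7.97) and Kdm5d (-8.32). Freeze-dried 1 was apart for the pituitary list (0.795 against -0.211 to -0.0552), Pomc (2.28 against -1.66 to -1.2) and Utp14b (-4.22 against -3.74 to -3.67).

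The remaining values were smaller. Irradiated 1 was highest of its group for Chek1 (-3.34 against -3.57 to -3.55), Tk1 (-0.22 against -0.36) and the mean of the repair list (0.0267 against -0.0197 to -0.0164). Freeze-dried 4 was high for Wrn (0.36 against -0.17 to -0.09) and low for the monoamine and cholinergic list (0.0211 against 0.116 to 0.121). Freeze-dried 3 was low for the integrated stress list (-0.105 against -0.00674 to 0.0106), irradiated 2 for the arrestin and thioredoxin list (0.0246 against 0.066 to 0.0722), and irradiated 3 for Pomc (-1.59 against -1.44 to -1.42).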

How the results depend on the processing

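No gene passed the adjusted threshold in any of the 33 settings run except without freeze-dried 4, which gave 3; leaving out each of the 16 arrays in turn gave 0 to 3. Mob3c was then past the threshold (-0.70; adjusted p = 0.0356, limma). The number at an unadjusted p under 0.05, 1917 in the main comparison, was 1022 with slide as a fixed block, 838 on slide 1 only, 3402 with array weights and 1166 in the authors' deposited table, and 1146 to 3021 when an array was left out: 1251 without freeze-dried 1, 1177 without freeze-dried 2, 3021 without freeze-dried 4 and 1146 without irradiated 3. The cause of these moves was not tested, other than that slide 1 alone has fewer animals. Without freeze-dried 2 and irradiated 1 together, chosen after seeing the data, it was 1682. For slide 2 against slide 1 within the irradiated group, 2 became 1 without the filter on dim probes, 0 with the 8 arrays of the 2 groups only and 1946 with 1 slide term shared with the fresh group, whose own split it then holds; it was 0 to 17 when an array was left out, with 17 without irradiated 1 and 15 without irradiated 4. Deviations of same-numbered animals correlated at 0.383, -0.133, 0.118 and 0.0687. Differently numbered animals were not set beside them, so whether replicate numbers pair the animals cannot be told. With the replicate block 0 genes passed, 2306 had an unadjusted p under 0.05, and the slide comparison gave 0.

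Of the differences of named genes over all settings, 20 changed sign and 3092 did not change sign or side. Probes of a gene did not always share the sign given above. Only 1 of 2 did for Gatm, Irf3, Gstm1 and Grin1, and 2 of 3 for Smarca4, Rps24 and Bcl2l11. Averaging the probes of a gene gave -0.06 for Ifnar2, 0.06 for Mdm2, -0.02 for Wrn, -0.01 for Grin1 and 0.06 for Bcl2l11; normexp with quantile normalization gave -0.02 for Nr4a2; and without freeze-dried 2 and irradiated 1 together Mdm2 was 0.01. On slide 1 only, Cyfip2 was 0.04, Dnal1 -0.11, Mt3 0.11, Eif2s3y 0.16 and Kdm5d 0.02; with slide as a fixed block Dnal1 was -0.06 and Mt3 0.11, and in the authors' deposited table -0.07 and 0.02. When an array was left out, Krt14 was -1.98 to 0.01 (0.01 without freeze-dried 2), Eif2s3y -2.54 to 0.33 and Kdm5d -2.5 to 0.01 (both highest without irradiated 4), and with Y-linked signal as a covariate Eif2s3y was 0.08. The interferon list's median stayed above 0 in all settings, from 0.249 to 0.653. Of the list medians over all settings, 1468 moved by less than the spread between animals and 81 by more, 32 of these under median scaling.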
